A study of Ovis aries and Capra hircus and Bos taurus with 26 samples.

Results

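Single distal enhancers were H3K27ac regions of ruminant liver that carried no H3K4me3, lay 5 to 100 kb from the nearest H3K4me3 region and had no other such region close by. They were chosen by peak calls and positions alone. In each species the autosomal H3K27ac peaks of all libraries were merged, and a merged region became a candidate if at least 2 libraries had a peak in it and no H3K4me3 peak overlapped it. A candidate was kept if the edge-to-edge distance to the nearest H3K4me3 region was 5 to 100 kb and no other candidate lay within 12.5 kb. The rule kept 12931 of 40899 candidates and of 159072 merged H3K27ac regions, with 4621 members in goats, 4193 in sheep and 4117 in cattle.

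The study profiled liver of adult, healthy Holstein cattle, Texel sheep and Yunnan black goats, 3 animals of each species, with no treatment. Chromatin was immunoprecipitated with antibodies against H3K27ac and H3K4me3 and sequenced beside input chromatin. Peak lists of 8 H3K27ac libraries (cattle B and C, and A, B and C of sheep and goats) and 9 H3K4me3 libraries (A, B and C of each species) were analysed here. Libraries with the same letter within a species came from the same liver, whereas letters do not tie animals of different species, and the cattle were older than the sheep and goats, so species, breed, age and genome build cannot be told apart.

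Enhancers and promoters in use carry H3K27ac (histone H3 acetylated at lysine 27), whereas H3K4me3 (H3 trimethylated at lysine 4) is a mark of promoters. An H3K27ac region away from any H3K4me3 is therefore read as a candidate enhancer, a stretch of DNA to which transcription factors bind and from which they raise transcription of a gene that can lie far away. In liver many enhancers sit in dense groups around genes of hepatocyte identity. The members described here are candidates with no other candidate within 12.5 kb, and where they lie relative to such genes is not known. Whole liver holds hepatocytes and other cells, so fewer cells with an active enhancer and less acetylation per cell cannot be told apart. Marker genes of liver, nearby genes and base sequences of the members were not analysed here.

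The H3K27ac libraries held 35693 to 48735 autosomal peaks and the H3K4me3 libraries 23483 to 29469. Median peak width in the H3K27ac libraries was 458 to 520 bp, and median fold enrichment 3.67 to 4.03. The study's methods describe subsampling of every library to one number of reads before the calls. The lists themselves carry no read totals, so no counting interval is given for a share of peaks.

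Singles made up 33.9% of the candidates of cattle, 34.9% of those of sheep and 27.6% of those of goats. Of all candidates in the same distance range, 49.8%, 53.6% and 41.7% were single, and the others formed the grouped distal candidates, 4152 in cattle, 3637 in sheep and 6463 in goats. Goats thus had the most singles and the lowest single share, since their grouped candidates were the most numerous. A further 629, 586 and 771 single candidates lay more than 100 kb from H3K4me3 and are called remote singles below. The members were short: the merged region had a median width of 589 bp in cattle, 564 bp in sheep and 543 bp in goats, and together the members covered 2.73, 2.65 and 2.82 Mb.

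Most members lay near the lower end of the distance range. The median distance to H3K4me3 was 21.6 kb in cattle, 19.5 kb in sheep and 21.4 kb in goats, against 18.7, 18.0 and 18.9 kb for grouped candidates. At 5 to 10 kb there were 167 cattle, 188 sheep and 187 goat members per kb of distance. At 50 to 100 kb there were 15.6, 13.7 and 16.6 per kb, so the density fell with distance in each species. Singles were a larger part of the distal candidates far out: their share was 46.2% at 5 to 10 kb and 56.1% at 50 to 100 kb in cattle, with 51.2% and 59.4% for sheep and 38.0% and 47.3% for goats. Distance and isolation are parts of the rule, so these values describe the members and carry no test.

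**Figure D1:**
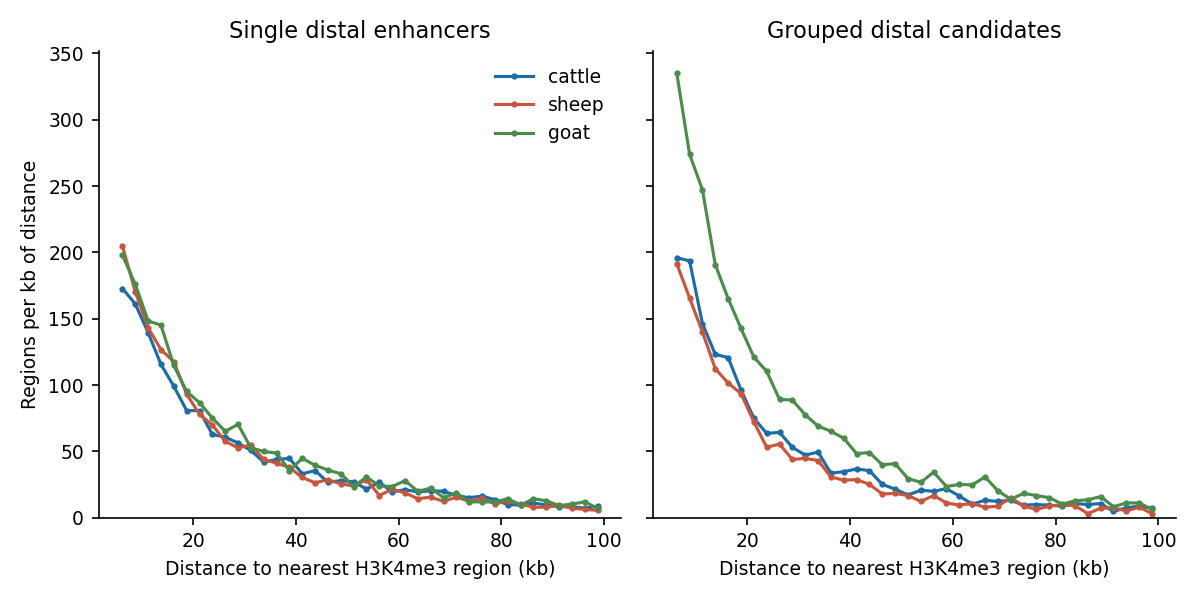
Number of single distal enhancers (left) and grouped distal candidates (right) per kb of distance, in bins of 2.5 kb, against the distance to the nearest H3K4me3 region in kb, with 1 line per species. Single members fall from 167 to 188 per kb at 5 to 10 kb to 13.7 to 16.6 per kb at 50 to 100 kb in all 3 species, and among grouped candidates the goat line is the highest in all but 2 bins.

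The peak caller reports for each summit a fold enrichment, which is the summit pileup (the fragments stacked at the summit) plus 1 over the local background (the fragments expected there) plus 1. The 2 parts were recovered from the fold enrichment and its p-value together, since the pileup is a whole number. In all 8 H3K27ac lists, over the 28178 to 36405 peaks with a pileup below 60 fragments and a background above the lowest, the background was, within 2% of a step, a whole multiple of 0.0226 to 0.0248 fragments, the steps that fragments of 226 to 248 bp counted in a window of 10 kb would give. Multiples of 10 steps made up 9.79% to 10.3%, with no excess from a shorter window. A single window of 10 kb is what the caller uses when it has no control library, and the study's methods name input libraries as controls without giving the caller's control setting. Read in this way, the background is the H3K27ac signal of the region itself and of all that lies within 5 kb of its summit, a median of 179 to 255 fragments for members, and fold enrichment is the height relative to it. In a typical library, a member had a summit pileup of 21.8 ± 2.19 fragments over a local background of 4.92 ± 0.685 fragments and a fold enrichment of 3.78 ± 0.155 (mean ± SD of the medians of 8 libraries).

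By library, the median fold enrichment of members was 3.49 in cattle B and 4.01 in cattle C. It was 3.72, 3.72 and 3.77 in sheep A, B and C. It was 3.80, 3.85 and 3.91 in goats A, B and C. The 2 cattle libraries thus enclosed all 6 others. Fold enrichment of members was above the median of all peaks of its library for 40.1% to 54.7% of them, while the summit pileup was below that of all peaks for 77.0% to 90.7%. Members were therefore peaks of ordinary fold enrichment and low height.

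Members had a higher fold enrichment than grouped candidates at the same range of distances, yet were lower in height. Median fold enrichment was higher for singles in 8 of 8 libraries: 3.49 against 2.98 in cattle B and 4.01 against 3.54 in cattle C. In sheep it was 3.72 against 3.43, 3.72 against 3.33 and 3.77 against 3.38 in animals A, B and C. In goats it was 3.80 against 3.42, 3.85 against 3.40 and 3.91 against 3.58. Within every library singles lay above grouped candidates, although the single value of cattle B fell inside the range of grouped values of other libraries. The mean difference was 0.16 ± 0.03 on the log2 scale (SD, n = 8), or 11.99%. It is a description with no test, since the rule bears on the background by which fold enrichment divides.

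The height ran the other way. The median summit pileup was 25 against 36 fragments in cattle B, 25 against 39 in cattle C, 21 against 29, 29 and 30 in sheep A, B and C, and 19 against 27, 22 against 33 and 20 against 29 in goats A, B and C. Singles were lower in 8 of 8 libraries, by 0.53 on the log2 scale (a change of -30.8%, an alternative added after seeing the data). Their local background was lower still, by 0.76 on the log2 scale (a change of -41.0%). It was 4.11 to 6.32 fragments for singles and 6.90 to 10.99 for grouped candidates. The rule gives every grouped candidate a neighbour and no single one, which bears on the direction of the background difference, so its values are a description with no test. A peak over a higher background needs a higher pileup to be called, so the pileup difference is likewise a description with no test. By −log10 q, the caller's measure of how unlikely a peak is over that background, singles were also below grouped candidates in 8 of 8 libraries, by 0.20 on the log2 scale. Singles were thus above grouped candidates by fold enrichment alone, and below them by pileup, background and −log10 q. A grouped candidate can have its neighbour inside the window of the background. Against the grouped candidates with none within 5 kb, an alternative added after seeing the data, the differences were smaller, 0.10 for fold enrichment, -0.29 for pileup and -0.45 for background on the log2 scale, with the same sign in 8 of 8 libraries. The rule gives these grouped candidates a neighbour within 12.5 kb too, so the values are a description with no test. Isolation itself rests on calls, since a neighbour that was not called in 2 libraries leaves its partner single, and its part in these differences was not tested.

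**Figure D2:**
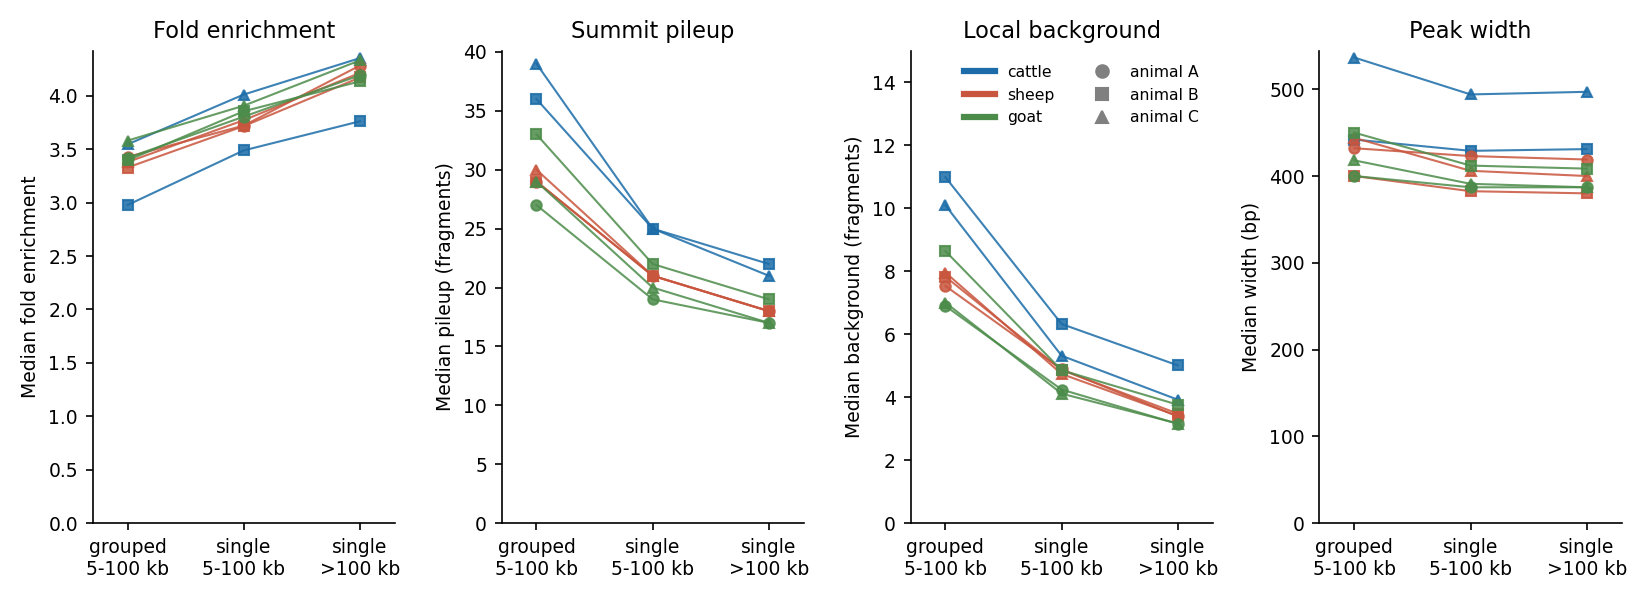
Median fold enrichment, summit pileup (fragments), local background (fragments) and peak width (bp) of grouped distal candidates, single distal enhancers and remote singles, with 1 line per H3K27ac library, the colour giving the species and the marker the animal. From grouped to single to remote, fold enrichment is higher in every library while summit pileup and local background are lower, and width changes by less than the spread between libraries.

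By fold enrichment, pileup and background, members lay between grouped candidates and remote singles. The remote singles' median fold enrichment was 4.18 ± 0.186 against 3.78 ± 0.155 for members (SD, n = 8), higher in 8 of 8 libraries, and the difference of members from remote singles was -0.14 ± 0.03 on the log2 scale (exact two-sided sign-flip permutation p = 0.00781, the smallest that 8 animals allow, and 0.0127 after Benjamini-Hochberg adjustment over the 13 tests). The members' summit pileup was higher than that of remote singles, by 0.21 on the log2 scale, and their background by 0.43, each in 8 of 8 libraries (exact permutation p = 0.00781 for both). By −log10 q the difference of members from remote singles was -0.026 on the log2 scale and positive in 2 of 8 libraries (exact permutation p = 0.109). Peak width did not separate the members from remote singles. The members' medians were 429 and 494 bp in cattle B and C, 423, 382.5 and 406 bp in sheep and 387, 412 and 391 bp in goats, and the difference from remote singles was 0.01 ± 0.01 on the log2 scale (exact permutation p = 0.125, adjusted p = 0.148). Without the H3K4me3 library of cattle A, which changes the distances, the exact permutation p was 0.0156 for a difference of 0.014, and without sheep A or goat B the sign turned.

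The gradient also held among the members themselves. Members 5 to 20 kb from H3K4me3 had a lower median fold enrichment than members 50 to 100 kb away in 8 of 8 libraries. In cattle the values were 3.42 against 3.61 in animal B and 3.90 against 4.14 in animal C. In sheep they were 3.65 against 3.89, 3.62 against 3.86 and 3.69 against 3.88. In goats they were 3.72 against 3.96, 3.76 against 3.97 and 3.81 against 3.998. The difference was small and even between libraries, -0.08 ± 0.01 on the log2 scale (SD, n = 8), with an exact two-sided sign-flip permutation p = 0.00781 and an adjusted p = 0.0127. Near members had a higher summit pileup (0.22 on the log2 scale) and a higher background (0.35), each in 8 of 8 libraries (exact permutation p = 0.00781 for both). By −log10 q near members were also the higher, by 0.052 on the log2 scale in 7 of 8 libraries (exact permutation p = 0.0156). Averaged over libraries, the median pileup was 24.6 fragments at 5 to 10 kb, 22.6 at 10 to 20 kb, 21.1 at 20 to 50 kb and 20.1 at 50 to 100 kb. The median background over the same bins was 5.88, 5.11, 4.62 and 4.27 fragments. The width changed little, from 419 bp in the nearest bin to 413 bp in the farthest.

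**Figure D3:**
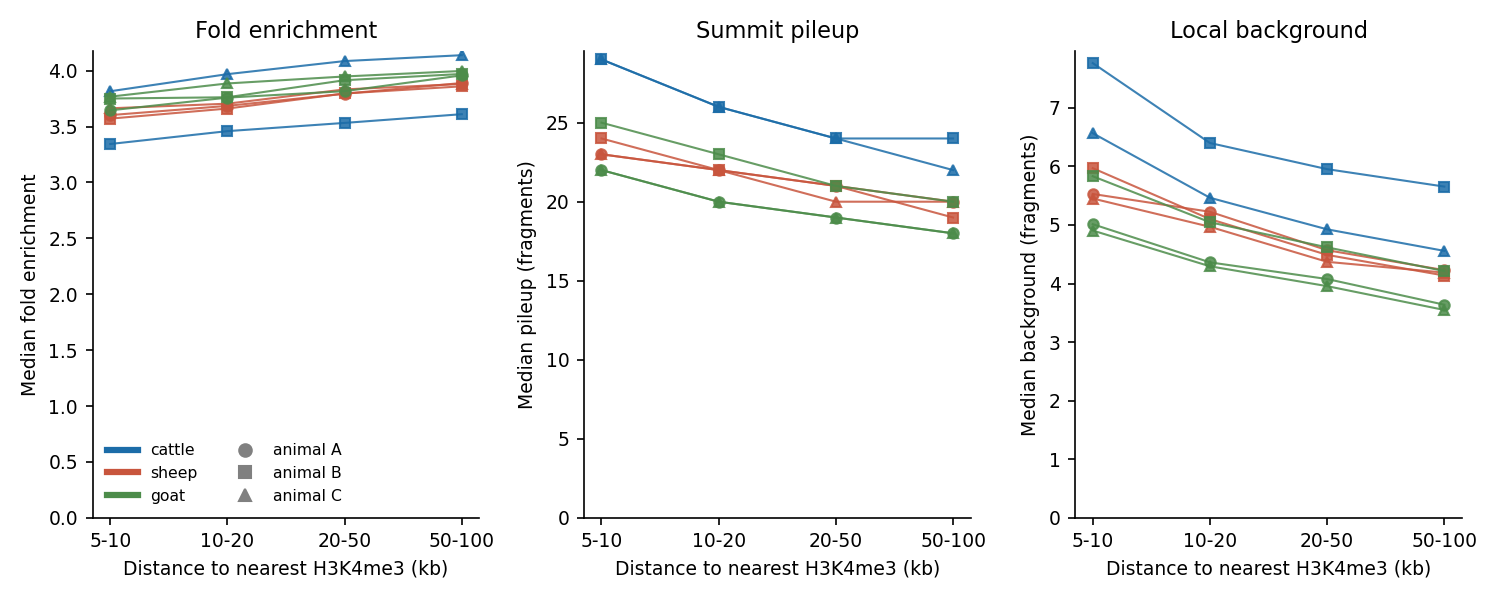
Median fold enrichment, summit pileup (fragments) and local background (fragments) of single distal enhancers in 4 classes of distance to the nearest H3K4me3 region (kb), with 1 line per H3K27ac library. In all 8 libraries the farthest members have the higher fold enrichment and the lower pileup and background than the nearest, and the 2 cattle libraries have the highest pileups at 5 to 10 kb, at 29 fragments.

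Members were slightly narrower than grouped candidates and more often had a single summit. The median peak width of members was lower in 8 of 8 libraries, by 0.08 ± 0.04 on the log2 scale (a change of -5.54%, exact two-sided sign-flip permutation p = 0.00781, adjusted p = 0.0127). With peaks of q at or below 1e-05 alone the difference was -0.036, a change of -2.43%, and lower in 7 of 8 libraries (exact permutation p = 0.0156). The spread of library medians, 382.5 to 494 bp for singles and 400 to 536.5 bp for grouped candidates, was wider than that difference. When classes were compared without pairing them within a library the exact permutation p was 0.109. A peak with more than 1 summit was found in 15.2% and 19.9% of members in cattle B and C. It was found in 14.8%, 11.6% and 14.9% in sheep A, B and C and in 11.5%, 13.5% and 12.5% in goats A, B and C. The share of members was below that of grouped candidates in 8 of 8 libraries, by 2.65 ± 1.13 percentage points (exact permutation p = 0.00781, adjusted p = 0.0127), and with peaks of q at or below 1e-05 alone this difference was 0.341 points in the other direction (exact permutation p = 0.641). The most summits of a member in any library was 5.

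The position of the summit was set less sharply in members. Between the strongest peaks of a member in 2 animals of a species the summits lay a median 79 to 91 bp apart over 7 pairs of animals, and 53.4% to 58.7% of members had them within 100 bp. Grouped candidates had medians of 66 to 80 bp. By animal, averaged over its partners, members differed by 84.1 bp and grouped candidates by 72.2 bp, a difference of 11.9 ± 2.01 bp that was positive in 8 of 8 animals (exact two-sided sign-flip permutation p = 0.00781, adjusted p = 0.0127). With peaks of q at or below 1e-05 alone it was 7.19 bp, again in 8 of 8. Animals of a species share these distances, and both cattle values come from 1 pair of libraries, so the 8 values are not independent. Grouped candidates also had the higher peaks, and the part of height in the agreement was not tested.

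The level of a member was partly shared between animals. Over the members with a peak in both libraries of a pair (2416 to 4117 regions), Spearman's rho was 0.48 to 0.58 for fold enrichment, 0.68 to 0.85 for summit pileup and 0.87 to 0.97 for local background. For fold enrichment the values of grouped candidates were higher, 0.57 to 0.68. These correlations run across regions of the same genome, which share mappability and base composition, and are descriptions only. Local background, which the caller estimates from a wider window than the pileup, was the most alike of the 3 measures.

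In sheep 1830 members (43.6%) had a peak in all 3 libraries, against 49.2% of all candidates and 53.6% of grouped candidates. In goats 2165 members (46.9%) did, against 53.2% of all candidates and 57.0% of grouped candidates. Both member shares were below the share over all candidates, although at least 2 libraries are part of the rule and no test was made. In sheep 586 members lacked a peak in C alone, 1043 in B alone and 734 in A alone. In goats 919 lacked one in C, 479 in B and 1058 in A. The library with the fewest peaks in its species, sheep B or goat A, was the one most often without a call. Members called in all 3 animals were the higher peaks, with a median pileup of 22 to 26 fragments over libraries, against 17 to 19 for members called in 2. Their fold enrichment differed less, 3.77 to 4.06 against 3.62 to 3.76.

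To test how often singles were found again in an H3K27ac library the rule had not used, members were chosen afresh from 2 H3K27ac libraries of sheep or goats and looked up in the third. All H3K4me3 libraries of the species, that of the held-out animal included, still took part in the choice. Of the singles, 72.6%, 64.9% and 76.6% had a peak in held-out sheep A, B and C. In held-out goats A, B and C the shares were 67.0%, 82.7% and 71.8%. Grouped candidates gave 80.8%, 71.7% and 81.9% in sheep and 73.3%, 90.0% and 80.8% in goats. Singles were found less often in 6 of 6 libraries, 72.6% against 79.8% on average, a difference of -7.16 ± 1.33 percentage points (exact two-sided sign-flip permutation p = 0.0312, the smallest that 6 animals allow, adjusted p = 0.0451). The held-out sets of a species overlap, and the exact permutation p without pairing was 0.105. Remote singles were found in 72.0%, a difference of 0.57 ± 4.02 points from members that was positive in 3 of 6 libraries (exact permutation p = 0.844).

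Recovery followed the height of the peak. Singles whose pileup in the 2 defining libraries was under 15 fragments were found in 48.2% ± 9.05 (SD, n = 6), those of 15 to 20 in 62.1% ± 8.83 and those of 20 to 30 in 76.8% ± 6.31. Those of 30 to 50 fragments were found in 88.3% ± 3.21 and those of at least 50 in 95.2% ± 3.18. Recovery of members thus rose in every step of height. Grouped candidates of the same classes gave 51.7%, 59.3%, 75.3%, 86.0% and 92.1%. Within libraries singles were found more often than grouped candidates in 2 of 6 libraries in the lowest class, in 4 of 6 at 20 to 30 fragments and in 5 of 6 in each of the other 3 classes. The paired differences were -3.46 ± 10.05, 2.79 ± 3.18, 1.497 ± 2.39, 2.248 ± 3.24 and 3.07 ± 3.79 points (SD, n = 6) and were not tested by class. Among regions of middling pileup (the middle tertile, an alternative added after seeing the data), the recovery of singles differed from that of grouped candidates by 2.45 points (5 of 6 libraries positive, exact permutation p = 0.0938). It differed from that of remote singles by -7.44 points (0 of 6 positive, exact permutation p = 0.0312). Among regions of middling fold enrichment singles differed from grouped candidates by -10.7 points (exact permutation p = 0.0312). Their difference from remote singles was then 4.66 points (5 of 6 positive, exact permutation p = 0.0938), opposite in sign to that at middling pileup. By distance, recovery averaged 74.2% for singles at 5 to 10 kb and 70.6% at 50 to 100 kb, lower far out in 6 of 6 libraries, and the difference of 3.59 ± 2.69 points (SD, n = 6) was not tested.

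**Figure D4:**
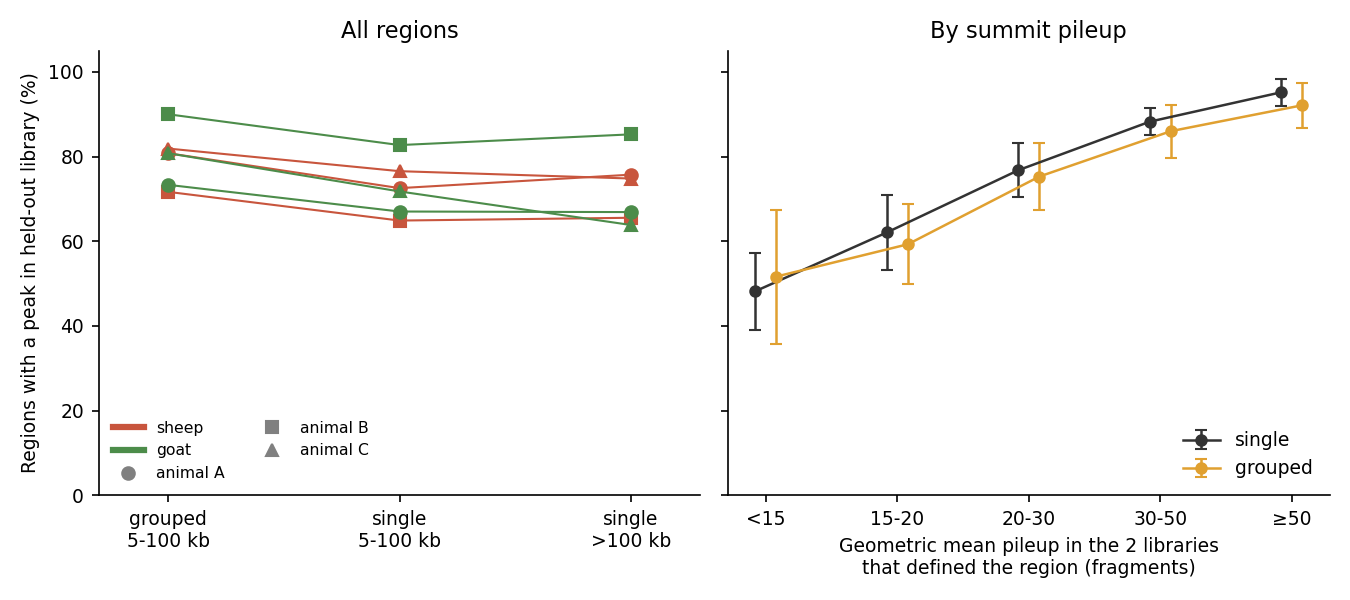
Percent of regions chosen from 2 H3K27ac libraries that had a peak in the third, held-out library: left, for grouped distal candidates, singles and remote singles with 1 line per held-out library; right, mean ± SD over 6 held-out libraries by the pileup at the summit in the 2 defining libraries (fragments). Singles lie below grouped candidates in all 6 libraries on the left, and on the right the mean of singles is below that of grouped candidates in the lowest class and above it in the other 4.

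Single did not always mean empty surroundings. An H3K27ac region called in only 1 animal lay within 12.5 kb of 45.6% of members in cattle, 39.9% in sheep and 43.0% in goats. An H3K4me3 region lay in that window for 28.8%, 30.9% and 28.3%. Neither mark had any other region there for 1649 cattle members (40.1%), 1796 sheep members (42.8%) and 1891 goat members (40.9%). The next candidate was a median 44.3, 47.8 and 41.3 kb away. The choice of at least 2 animals thus made single many regions that had a neighbour in 1 liver.

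Each member was assigned the H3K4me3 region nearest to it. In cattle 4117 members had 3566 such regions, in sheep 4193 had 3728 and in goats 4621 had 4054, and 25.3%, 21.0% and 23.0% of the members shared theirs with another member. The intervals between 2 neighbouring H3K4me3 regions that held a member held exactly 1 in 82.8%, 85.4% and 83.5%, and the most was 5. On its other side the next H3K4me3 region was a median 75.8 kb away in cattle, 69.7 kb in sheep and 73.5 kb in goats. Nearest does not mean target, since no contacts between regions were analysed here.

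The H3K4me3 region nearest to a member carried H3K27ac in 78.8% in cattle, against 70.0% of all autosomal H3K4me3 regions. In sheep the shares were 78.9% and 71.3%, and in goats 84.1% and 78.7%. For H3K4me3 regions nearest to grouped candidates they were 82.0%, 79.9% and 87.9%. The share beside members thus stood above all H3K4me3 regions and below that beside grouped candidates in each species, and these shares of a species carry no replicate error. The H3K4me3 regions nearest to members were called in all 3 animals in 68.5%, 66.7% and 67.5%, close to the 68.0%, 67.4% and 69.7% of all regions. Their median width was 876, 790 and 836 bp, against 775, 731 and 800 bp over all of them.

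The H3K4me3 peaks nearest to singles had a higher fold enrichment than those nearest to grouped candidates, leaving out regions nearest to both. In cattle the medians were 6.87 against 6.56, 7.36 against 7.26 and 7.91 against 7.63 in animals A, B and C. In sheep they were 7.72 against 7.13, 7.48 against 6.71 and 7.19 against 6.55. In goats they were 7.64 against 7.28, 7.96 against 7.46 and 7.85 against 7.27. The difference was positive in 9 of 9 libraries, 0.09 ± 0.04 on the log2 scale (exact two-sided sign-flip permutation p = 0.00391, the smallest that 9 animals allow, adjusted p = 0.0127). By fold enrichment it was largest in sheep (0.14) and smallest in cattle (0.05), and cattle B showed hardly any (0.02). The summit pileup of these H3K4me3 peaks differed in the same direction, by 0.13 on the log2 scale, in 8 of 9 libraries (exact permutation p = 0.00781), and goat A was the exception at -0.04. By pileup cattle were not the smallest: A, B and C had 0.14, 0.10 and 0.21, sheep 0.14, 0.21 and 0.24, and goats B and C 0.07 and 0.08.

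Members took a larger share of the peaks in cattle. They held 11.2% and 9.84% of the autosomal H3K27ac peaks of cattle B and C, 9.26%, 9.23% and 9.40% in sheep and 9.11%, 8.86% and 8.76% in goats. The values of the 3 species did not overlap. The share is set by the rule and both cattle values rest on the same 4117 regions, so it is a description and no test is read from it. Cattle needed 2 of 2 libraries and the others 2 of 3, and with 2 of 2 in every species the means were 10.5%, 8.49% and 8.77%, with goats above sheep. Fold enrichment of members did not separate the species (exact permutation test of F over the 560 arrangements of species labels, with no direction, p = 0.7). Their summit pileup was 25 and 25 fragments in cattle against 19 to 22 in sheep and goats, and their peak width 429 and 494 bp against 382.5 to 423 bp (width by species, exact permutation p = 0.0393, adjusted p = 0.0511). All peaks together were also higher in cattle, with median pileups of 37 and 39 fragments against 33 to 36, and the part of depth was not tested. By pileup and by local background in place of fold enrichment, alternatives added after seeing the data, the species differed (exact permutation p = 0.0143 and 0.00714), with cattle higher by 0.28 and 0.33 on the log2 scale. None of these differences of members is read as one between species, since the rule asked cattle for 2 of 2 libraries and the others for 2 of 3. Sheep and goat members with a peak in every library, 3 of 3 where cattle members need 2 of 2, had median pileups of 22 to 26 fragments and median widths of 424 to 480 bp. Among members called in every library, an alternative added after seeing the data, the species differed by 0.08 on the log2 scale in pileup (exact permutation p = 0.411) and by 0.024 in width (exact permutation p = 0.825). Calls in 3 libraries are the stricter condition and go with higher peaks, so these values do not show whether an equal condition would leave a difference. Equal numbers of libraries were used for the share of peaks alone.

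Members were spread over every autosome. Numbering the assembled autosomes as the builds do, the density was 1.66 members per Mb in cattle (29 autosomes), 1.58 in sheep (26) and 1.88 in goats (29), taking the end of the last peak as the end of a chromosome. It was highest on cattle chromosome 19 (2.52 per Mb), sheep chromosome 25 (2.39 per Mb) and goat chromosome 19 (2.93 per Mb). It was lowest on cattle chromosome 12 (1.07 per Mb), sheep chromosome 10 (1.15 per Mb) and goat chromosome 6 (1.33 per Mb). Across autosomes it went with the density of H3K4me3 regions, with Spearman's rho of 0.79 in cattle, 0.59 in sheep and 0.62 in goats. H3K4me3 density ranged more widely, from 7.25 to 24.0 regions per Mb in cattle, and the rule ties members to H3K4me3 by distance.

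Between cattle and goat autosomes of the same number, the density of members gave Pearson's r = 0.86 and Spearman's rho = 0.83 over 29 autosomes. The density of grouped candidates gave r = 0.55 and rho = 0.50, and that of H3K4me3 regions r = 0.99 and rho = 0.98. The counts come from merged libraries of each species, autosomes were matched by number alone, and the values are descriptions with no test. The extents of chromosomes 9 and 14 differed most between the builds, at 104.5 and 91.6 Mb and at 82.3 and 94.7 Mb in cattle and goats. Chromosome 19 led in both species, and chromosomes 6 and 12 were sparse in both, at 1.21 and 1.07 members per Mb in cattle and 1.33 and 1.39 in goats.

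**Figure D5:**
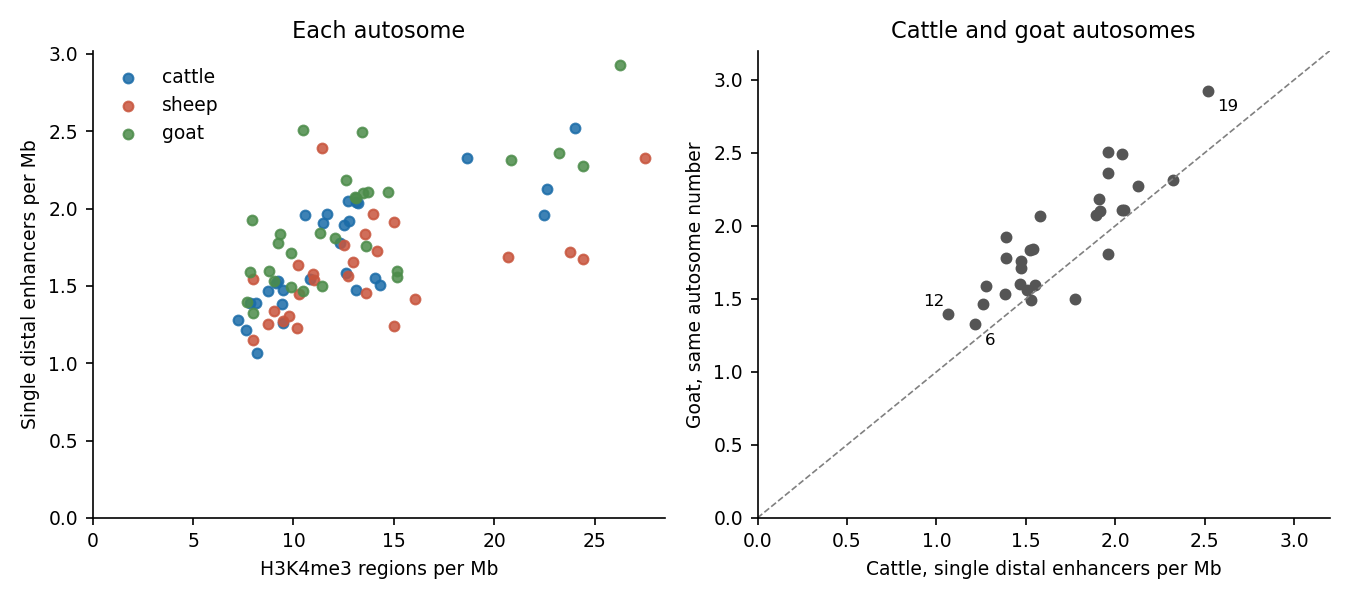
Left, single distal enhancers per Mb against H3K4me3 regions per Mb, with 1 point per autosome and a colour per species; right, single distal enhancers per Mb of goat autosomes against cattle autosomes of the same number, with the line of equal values dashed and chromosomes 19, 12 and 6 numbered. Chromosome 19 has the highest density in both cattle (2.52 per Mb) and goats (2.93 per Mb).

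Individual members show what these medians hold. The members described next are those with the highest lowest fold enrichment over all H3K27ac libraries of their species, and their values describe the top of the range. The strongest sheep member was chr23:30720521-30721172 (Oar_rambouillet_v1.0), 652 bp wide and 37.1 kb from an H3K4me3 region called in 1 library. Its fold enrichment was 11.5, 10.8 and 13.4 in sheep A, B and C, from pileups of 33, 30 and 37 fragments over a background of 1.97, 1.87 and 1.84. The pileup was ordinary for an H3K27ac peak and the background was at or next to the lowest value that the caller gave any peak of the library. Its next candidate was 134 kb away.

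Other sheep members of this kind were chr17:79729061-79729614, with fold enrichments of 9.22, 10.5 and 9.77 in sheep A, B and C, and chr1:49425652-49426701, with 10.5, 11.6 and 8.82. The latter lay 81.8 kb from H3K4me3. The member chr12:3144-3550 sat at the very start of the assembled chromosome, 5.20 kb from an H3K4me3 region called in all 3 animals. Its fold enrichment was 13.0, 9.77 and 12.7, from pileups of 44, 27 and 50 fragments, so that sheep B was the lowest. Its background in sheep B (1.87) was at the lowest value of that library. So were the background of the chromosome 17 member in sheep B (1.87) and that of the chromosome 1 member in sheep C (1.83).

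In cattle (ARS-UCD1.2) the strongest member was chr11:99328897-99329558, 8.49 kb from an H3K4me3 region without H3K27ac. Its fold enrichment was 8.20 in animal B and 9.94 in animal C, from pileups of 32 and 35 fragments over 3.03 and 2.62. The member chr3:9480755-9481425 had 8.47 and 7.98 and its next candidate was 275 kb away. The member chr23:17356950-17357812 was the highest of these cattle regions, with pileups of 78 and 95 fragments and fold enrichments of 7.71 and 11.4. It differed more between the 2 animals than the others, and chr3:19397481-19398056 had 7.71 and 9.83. All 4 cattle members were higher in C than in B except the first of chromosome 3.

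In goats (ARS1) the strongest member was chr4:26593370-26593944, with fold enrichments of 7.07, 7.002 and 6.86 in A, B and C, so that its 3 animals differed by very little. It lay 53.0 kb from an H3K4me3 region found in all 3 animals. The member chr6:65613995-65614546 lay 95.0 kb from H3K4me3 and varied more, at 6.51, 10.05 and 8.56. The member chr10:51152588-51154065 was the tallest, with pileups of 56, 66 and 71 fragments over backgrounds of 8.01, 9.64 and 8.97, and fold enrichments of 6.33, 6.30 and 7.22. The fourth, chr3:18081830-18082378, had 6.87, 6.56 and 6.22. Tall and low members thus reached the same fold enrichment over different backgrounds.

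The widest members had fold enrichments on both sides of the member medians of their libraries. They were cattle chr12:52479227-52481460 (2234 bp), sheep chr14:57372591-57374750 (2160 bp) and goat chr8:53720947-53723456 (2510 bp). The cattle region had fold enrichments of 2.94 and 4.95 in B and C, and its peak was 392 bp in B but 1934 bp with 4 summits in C. The sheep region had 3.46, 4.46 and 3.59, with peaks of 1898, 350 and 544 bp. The goat region had 3.54, 3.68 and 3.30, with peaks of 462, 1800 and 1121 bp. In each of them peaks of unequal length and place were joined, so that the merged region was wider than its longest peak. The next widest were cattle chr1:59525120-59527300 (2181 bp), sheep chr1:92311939-92314073 (2135 bp) and goat chr13:63481956-63484137 (2182 bp), all close in width to the first. The second sheep region had fold enrichments of 5.04, 3.97 and 4.73 in A, B and C, above the member median of each library, and the second cattle region 4.25 and 3.64 in B and C. The second goat region was lower, at 2.54, 3.01 and 2.98.

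The members with the most summits in 1 library were cattle chr5:45028672-45030379, with 4 summits in B and 5 in C, and goat chr3:28065800-28067635, with 2, 2 and 5 summits in A, B and C. In sheep chr1:76781178-76782968 had 4, 2 and 3. The cattle region was nearly as wide in both animals, at 1631 and 1706 bp. The most isolated member of cattle, chr6:2165939-2166841, had its next candidate 3925 kb away, with fold enrichments of 6.86 and 4.69. That of sheep, chr6:85413178-85413602, was 4897 kb from the next candidate, was called in B and C alone and had 3.32 and 4.02, from pileups of 12 and 13 fragments. That of goats, chr26:51033062-51033614, was 2466 kb from the next and had 3.45 in A and 3.65 in B.

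The limits of the rule fell within a continuum. The members closest to 5 kb were 5005, 5001 and 5000 bp from H3K4me3 in cattle, sheep and goats, and the nearest candidates outside were at 4989, 4998 and 4997 bp. At the far end the last members were at 99870, 99889 and 99960 bp, and the first remote singles at 100099, 100260 and 100682 bp. The least isolated members had their next candidate at 12502, 12509 and 12504 bp, and the most isolated grouped candidates at 12470, 12498 and 12497 bp. In cattle the region just inside 5 kb, chr17:48314993-48315567, had fold enrichments of 3.90 and 3.91 in B and C, and that just outside, chr4:118585925-118586740, had 4.96 and 5.91. In sheep chr20:12199423-12200275 inside had 3.69, 3.64 and 4.11, and chr24:38571147-38571415 outside had 3.05 in A and 2.46 in B. In goats chr23:4809681-4809957 inside had 3.21 in B and 3.25 in C, and chr11:95302089-95302758 outside had 5.75, 3.58 and 3.99 in A, B and C.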

How the data were processed

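H3K27ac and H3K4me3 ChIP-seq peak lists of 9 livers (17 libraries) were analysed. Per the study's methods and the submitters' processing notes, reads were trimmed (Trim Galore 0.4.0, checked with FastQC 0.11.2), mapped with BWA 0.7.17 to ARS-UCD1.2, Oar_rambouillet_v1.0 or ARS1, freed of duplicates (Picard 2.25.0), brought to one number of reads per library by subsampling, and called per library with MACS2 2.1.1. The 9 input samples have no list of their own and were not analysed here. The deposited columns used were the fold enrichment of each summit (a linear ratio), the −log10 p-value and −log10 q-value of the authors' caller, and the summit offset. The read number behind a list is not among its columns.

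Lists were read in Python 3.11.15 (numpy 2.4.6, pandas 2.3.3, scipy 1.17.1; figures with matplotlib 3.10.9). Lines of one interval were joined into 1 peak with the values of its strongest summit. Touching H3K27ac peaks of a species were merged and classed by the rule, and the strongest peak of a library stood for a region. Summit pileup n and background b were solved from fold enrichment = (n + 1)/(b + 1) and the Poisson tail, which matched the deposited −log10 p within 0.001 for all but 13 of 566281 autosomal peaks of both marks and all but 1 of 327701 H3K27ac peaks. Classes were compared within libraries by exact sign-flip permutation tests over animals, and species by exact permutation of F, with 13 tests adjusted together by Benjamini-Hochberg. Those on the share of peaks by species and on fold enrichment against all grouped candidates are given with no p, since the rule bears on both. Class comparisons are paired by library, so the animal is its own block. Nothing states whether the animals of a species were related or handled together. On simulated lists, 700 regions were all classed as planted, and bedtools 2.31.1 gave the same 12931 members.

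The regions named are, per species, the 4 members with the highest lowest fold enrichment, the 2 widest, that with the most summits, the most isolated, and those beside each limit. The rule, the members and the tests were chosen with earlier results of these data known. Pileup, background, regions called in every library, regions at least 10 kb out, grouped candidates with none within 5 kb and regions of middling strength (the middle tertile) were alternatives added after seeing the data; the others were a stricter q, a window of 25 kb, H3K4me3 in 2 libraries, 50% coverage of a region, means, −log10 q, other distance bins, unpaired tests and leaving out animals. Sequences and gene assignments need genomes of these builds and were not used here.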

Additional observations from a re-analysis of the deposited data

Results flagged for a closer look

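Of the 10 comparisons set side by side between species (8 in all 3 species and 2 in sheep and goats), 3 differed between species at an unadjusted p under 0.05 in a test of the difference itself. In 1 more, on peak width, the test missed that threshold but both cattle moved one way and all 3 sheep the other. The difference in fold enrichment between members and remote singles on the log2 scale averaged -0.11 for the cattle, -0.18 for the sheep and -0.13 for the goats (exact permutation of F over species labels, p = 0.0429, adjusted p = 0.134 over the 10). The difference in peak width between members and remote singles was negative in both cattle (mean -0.01), positive in all 3 sheep (mean 0.01) and positive in 2 goats and 0 in the third (exact permutation p = 0.0536, adjusted p = 0.134). The distance between summits of 2 animals exceeded that of grouped candidates by 10 bp in cattle, 11.2 bp in sheep and 13.8 bp in goats (exact permutation p = 0.0393, adjusted p = 0.134). The fold enrichment of the H3K4me3 regions nearest to members exceeded that beside grouped candidates by 0.05 in cattle, 0.14 in sheep and 0.09 in goats on the log2 scale (exact permutation p = 0.00357, adjusted p = 0.0357), the only one of the 4 past 0.05 after adjustment. By summit pileup the order was another: 0.14, 0.10 and 0.21 in cattle A, B and C, 0.14, 0.21 and 0.24 in sheep and -0.04, 0.07 and 0.08 in goats. The classes rest on 2 of 2 H3K27ac libraries in cattle and 2 of 3 in the others. None of the 4 is therefore read as a difference between species. Both cattle summit values come from 1 pair of libraries, and animals of sheep or goats share pairs. The summit values are thus not independent, and their p is not read as a test.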

How the results depend on the processing

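The measure of strength changed most. In log2 units, by −log10 q, by summit pileup and by local background in place of fold enrichment, the difference of singles from grouped candidates was -0.20, -0.53 and -0.76. Against grouped candidates with none within 5 kb it was 0.10 by fold enrichment, -0.29 by pileup and -0.45 by background. That of near from far members was 0.052, 0.22 and 0.35. That of singles from remote singles was -0.026 (exact permutation p = 0.109), 0.21 and 0.43. That of cattle from the other species, against -0.02 by fold enrichment (p = 0.7), was 0.22, 0.28 and 0.33 (exact permutation p = 0.125, 0.0143 and 0.00714), so pileup and background passed the threshold. By background the H3K4me3 difference was 0.067 (p = 0.0664, exact permutation test), by −log10 q 0.22, with means 0.059 and with a window of 25 kb 0.14. Peaks of q at or below 1e-05 gave 0.341 points for more than 1 summit, -0.036 for width against grouped candidates, 7.19 bp between summits and 0.20 for width by species (p = 0.0786, exact permutation test), and means in place of medians gave 0.18 for the latter (p = 0.0786). Regions called in every library gave 0.024 for it (p = 0.825, exact permutation test) and 0.081 for pileup by species (p = 0.411). That condition asks for 3 libraries in sheep and goats and 2 in cattle. For width against remote singles, 50% coverage gave -0.0013 and regions called in every library -0.010. Coverage also gave -0.0089 points for recovery against remote singles. Regions of middling pileup gave 2.45 points for recovery against grouped and -7.44 against remote singles, and regions of middling fold enrichment -10.7 and 4.66. The cause of these changes was not tested.

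Without pairing classes within a library (no replicate block), the width difference of -0.082 and the recovery difference of -7.16 points missed the threshold (p = 0.109 and 0.105, exact permutation), and the 8 other such comparisons kept their side of it. Leaving out 1 animal gave -0.0085 to 0.015 for width against remote singles, -7.54 to -6.79 points for recovery against grouped and -0.702 to 1.84 against remote singles. With 3 held-out libraries left the smallest possible p is 0.25. It gave 0.15 to 0.22 for width by species, which missed the threshold without any 1 of the 6 sheep and goats, and 1.16 to 1.99 points for the share of peaks of cattle over the mean of the other species. Width against remote singles passed the threshold without cattle A alone (exact permutation p = 0.0156). Cattle B and C could not be left out, since candidates need 2 libraries. Apart from the share of peaks, which is not read as a test, no other setting changed a direction or a call, and the member counts stayed between 3011 and 4427 in cattle, 2824 and 4669 in sheep and 3283 and 4937 in goats.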
